A study of Mus musculus with 2 samples.

Results

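The genes described here make, break down and regulate polyamines, and they were taken by symbol: Odc1, Amd1, Srm, Sms, Sat1, Oaz1, Oaz2, Azin1, Smox and Paox. All 10 were found among the 22740 genes of the expression table. RNA came from the whole uterus of 2 C57BL/6 mice (wild type by their titles) on day 4 of pregnancy, with 1 library per animal. Both animals belong to 1 group with no treatment, so the data give the level of each gene and its spread between 2 animals, and no test between conditions is possible. The libraries are called uterus 1 and uterus 2 by the numbers in their titles. Levels are the authors' RPKM, reads scaled to transcript length and library size, the scale on which different genes are compared here. They are levels of transcripts, and amounts of protein were not measured. For 7 of the 10 genes, near-identical copies elsewhere in the genome make the level, and any order or ratio between genes, uncertain.

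Putrescine, spermidine and spermine are small, positively charged molecules that bind nucleic acids and are needed for cell growth and translation. Ornithine decarboxylase (Odc1) makes putrescine, and spermidine and spermine are built from it with aminopropyl groups that depend on S-adenosylmethionine decarboxylase (Amd1). Antizymes (Oaz1, Oaz2) bind ornithine decarboxylase and target it for degradation, the antizyme inhibitor (Azin1) draws antizyme away, and acetylation and oxidation (Sat1, Paox, Smox) return higher polyamines to lower ones. In the mouse uterus, blocking ornithine decarboxylase is known to impair implantation and the decidual response of the stroma.

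The tissue label was checked against marker lists. All 6 stroma markers and all 5 smooth muscle markers were at 1 RPKM or more in both uteri, with summed levels of 1988 and 1739 RPKM for stroma and 1741 and 1737 RPKM for smooth muscle. Of the 6 epithelium markers, 5 passed, and the list summed to 244 and 280 RPKM. Of the 5 decidua markers, 3 passed at low levels: Alpl with a mean of 2.36 RPKM, Bmp2 with 1.71 RPKM and Wnt4 with 1.67 RPKM. Prl8a2 and Prl3c1 were at 0, and the decidua list summed to 6.27 and 5.21 RPKM. Lists for other sources of RNA were also read. Of the 5 leukocyte markers, 4 passed, led by Ptprc at 17.7 and 21.6 RPKM and Emr1 at 19.2 and 17.3 RPKM, and the list summed to 57.0 and 59.0 RPKM. Of the 5 ovary and oviduct markers, 2 passed: Ovgp1, an oviduct glycoprotein, at 5.78 and 9.31 RPKM on 56 and 100 reads, and Star at 2.93 and 3.87 RPKM. Cyp19a1 was at 0, and that list summed to 9.94 and 14.0 RPKM. None of the 4 blastocyst markers passed, Cdx2 was at 0, and they summed to 2.43 and 1.49 RPKM. In whole tissue, fewer cells of a type and less RNA per cell cannot be told apart, and a level is an average over all cell types of the uterus.

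Of the 10 polyamine genes, 8 reached 1 RPKM in both uteri, against 58.4% of all genes. Odc1, Sat1 and Oaz2 were the highest, near 60 RPKM, and Srm, Azin1, Smox, Sms and Paox followed in that order. Amd1 was listed at 0 in both uteri and Oaz1 at 0.243 RPKM in uterus 1 and 0 in uterus 2. The median of the 8 detected genes was 37.3 RPKM, against 11.0 RPKM for all genes whose mean reached 1 RPKM. In the order of levels, the ranges over the 2 uteri overlapped between Odc1 and Sat1 and between Sat1 and Oaz2. From Oaz2 downward to Paox, each gene's range lay wholly above that of the next.

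**Figure D1:**
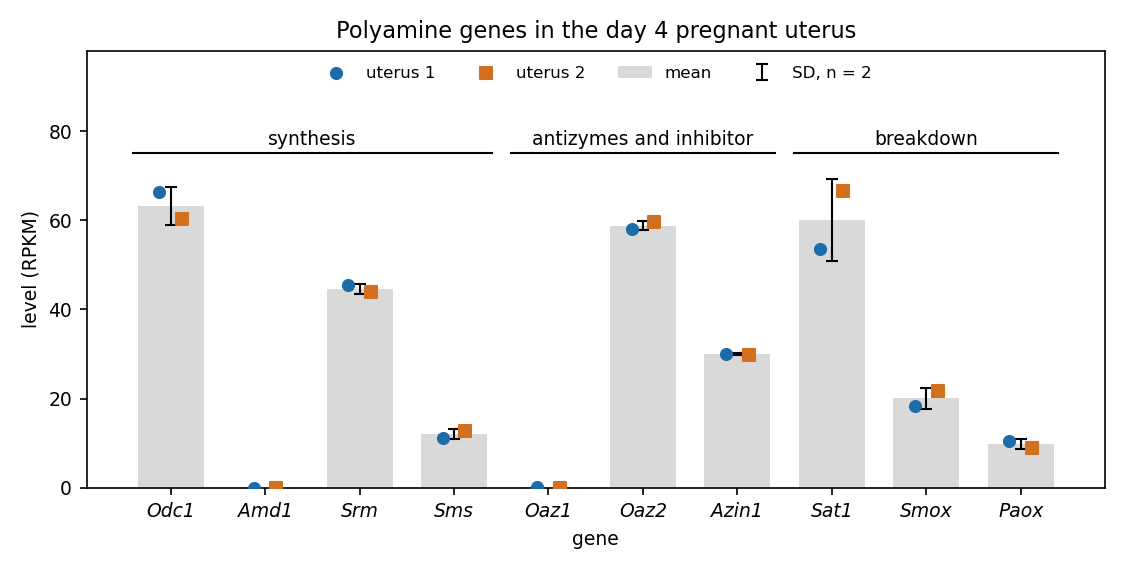
Level in RPKM (y axis) of the 10 polyamine genes (x axis) by role, with uterus 1 as circles, uterus 2 as squares, the mean as a bar and the SD over 2 uteri as an error bar where the gene was detected. Odc1, Oaz2 and Sat1 stand near 60 RPKM, and Amd1 and Oaz1 lie at or near 0.

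Among the synthesis genes, Odc1 (NM_013614, chr12:17551679-17558308, plus strand), the first enzyme of the pathway, had levels of 66.3 (uterus 1) and 60.2 RPKM (uterus 2), with a mean of 63.2 ± 4.25 RPKM (SD, n = 2). This mean lay above 96.1% of all genes. Srm (NM_009272, chr4:147965622-147968728, plus strand), spermidine synthase, lay at 45.4 and 43.9 RPKM (44.6 ± 1.05 RPKM, SD, n = 2). Sms (NM_009214, chrX:153881886-153929978, minus strand), spermine synthase, was lower at 11.2 and 12.8 RPKM (12.0 ± 1.13 RPKM, SD, n = 2). In both animals the listed transcript level fell from Odc1 to Srm and from Srm to Sms. Srm exceeded Sms 4.05-fold in uterus 1 and 3.43-fold in uterus 2. The log2 ratio was 1.89 ± 0.17 (SD, n = 2), larger than the spread between the uteri. That spread does not measure error from near-identical copies. Of 50-base windows, 54.6% in Odc1 and 41.7% in Sms were found elsewhere in the genome, against 0 in Srm. The part of these copies in the order from Odc1 to Sms was not tested, and no test was made of the order.

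Of the regulators of ornithine decarboxylase, Oaz2 and Azin1 were detected in both uteri. Oaz2 (NM_010952, chr9:65524355-65538107, plus strand) lay at 58.1 and 59.5 RPKM (58.8 ± 0.971 RPKM, SD, n = 2). Azin1 (NM_018745, chr15:38417185-38449021, minus strand), a catalytically inactive relative of ornithine decarboxylase, lay at 30.1 and 29.8 RPKM (29.9 ± 0.226 RPKM, SD, n = 2). Both genes were almost equal in the 2 animals. Odc1 exceeded Azin1 2.20-fold in uterus 1 and 2.02-fold in uterus 2, a log2 ratio of 1.08 ± 0.09 (SD, n = 2). The antizyme Oaz1 (NM_008753, chr10:80289401-80292035, plus strand) held 1 read in uterus 1 and 0 in uterus 2, so no ratio to Odc1 or Oaz2 is given.

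Antizyme messages share a feature that lies within their coding sequence: the ribosome meets a stop codon early in the first frame and, when polyamines are high, slips forward by 1 base to make the full protein. This site is shown because it marks both transcripts as antizymes, although Oaz1 is listed near 0. Bases were read from build NCBIM37 through the GENCODE M1 exons. The capitals mark the last sense codon and the stop codon of the first frame.
Oaz1, chr10:80291025-80291054, plus strand: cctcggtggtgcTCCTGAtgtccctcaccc
Oaz2, chr9:65534064-65534093, plus strand: cctctgtggtgcTCCTGAtgcccctcaccc
The first frame held 68 codons before the stop in Oaz1 and 32 in Oaz2. The frame reached by the forward slip ran for a further 159 codons in Oaz1 and 157 in Oaz2. RPKM counts reads over the whole transcript and does not tell whether the ribosome slipped.

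Among the breakdown genes, Sat1 (NM_009121, chrX:151647682-151650952, minus strand), which acetylates spermidine and spermine, had levels of 53.6 RPKM (uterus 1) and 66.6 RPKM (uterus 2), a mean of 60.1 ± 9.21 RPKM (SD, n = 2). It had the widest spread of the 8 detected genes in RPKM. Smox (NM_145533, chr2:131317598-131350919, plus strand), spermine oxidase, lay at 18.4 and 21.7 RPKM (20.1 ± 2.31 RPKM, SD, n = 2). Paox (NM_153783, chr7:147311584-147320233, plus strand), which oxidises acetylated polyamines in the peroxisome, was lowest of the detected genes at 10.5 and 8.93 RPKM (9.72 ± 1.12 RPKM, SD, n = 2). The transcript of the acetylating enzyme was therefore listed above those of both oxidases in each animal. Sat1 exceeded Smox 2.90-fold and 3.07-fold in uterus 1 and uterus 2, a log2 ratio of 1.57 ± 0.06 (SD, n = 2). Sat1 exceeded Paox 5.10-fold and 7.46-fold (log2 ratio 2.61 ± 0.39, SD, n = 2), and Smox exceeded Paox 1.76-fold and 2.43-fold (1.04 ± 0.33, SD, n = 2).

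The question between the 2 animals was how closely the polyamine genes resembled each other. Reads behind the RPKM were recovered from the steps in the values. Scaling totals were 3834174 for uterus 1 and 4256101 for uterus 2. The 8 detected genes held between 70 reads (Paox) and 647 (Odc1) in uterus 1, and between 66 (Paox) and 653 (Odc1) in uterus 2. None of the 8 was 1.5-fold or more apart between the uteri, where 8.35% of the 13647 genes whose mean reached 1 RPKM were (4.10% toward uterus 2 and 4.26% toward uterus 1), and 2.04% of the 6553 genes in the range of levels of these 8. At 2-fold or more the share was 2.60% of the 13647 genes. A count of 0 among 8 is near the share in genes of like level and shows nothing particular to polyamine genes.

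The log2 ratio of uterus 2 over uterus 1, after adding 0.1 RPKM, ran from -0.23 (Paox) to 0.31 (Sat1), with a median of 0.01 against 0.0007 for all genes. The direction was split evenly, with 4 genes above 0 and 4 below. Sat1, on 229 and 316 reads, was the 1 gene whose 95% exact counting interval left out 0 (0.06 to 0.57). The summed levels of the epithelium list, the leukocyte list and the ovary and oviduct list were also higher in uterus 2. Those of the stroma, smooth muscle, decidua and blastocyst lists were lower in uterus 2. The part of these cell sources in the ratio of Sat1 was not tested. Intervals cover counting error only and are not adjusted for the 8 genes, and the SD of the ratio was 0.27 over the 6553 genes of like level. Odc1, on 647 and 653 reads, had a ratio of -0.14 with an interval from -0.30 to 0.02. Smox, on 160 and 209 reads, had a ratio of 0.23 (-0.07 to 0.54), and Sms, on 145 and 184 reads, 0.19 (-0.13 to 0.52). Paox had -0.23 on 70 and 66 reads, with the widest interval, from -0.74 to 0.27. Srm, Oaz2 and Azin1 had ratios of -0.05, 0.03 and -0.02.

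**Figure D2:**
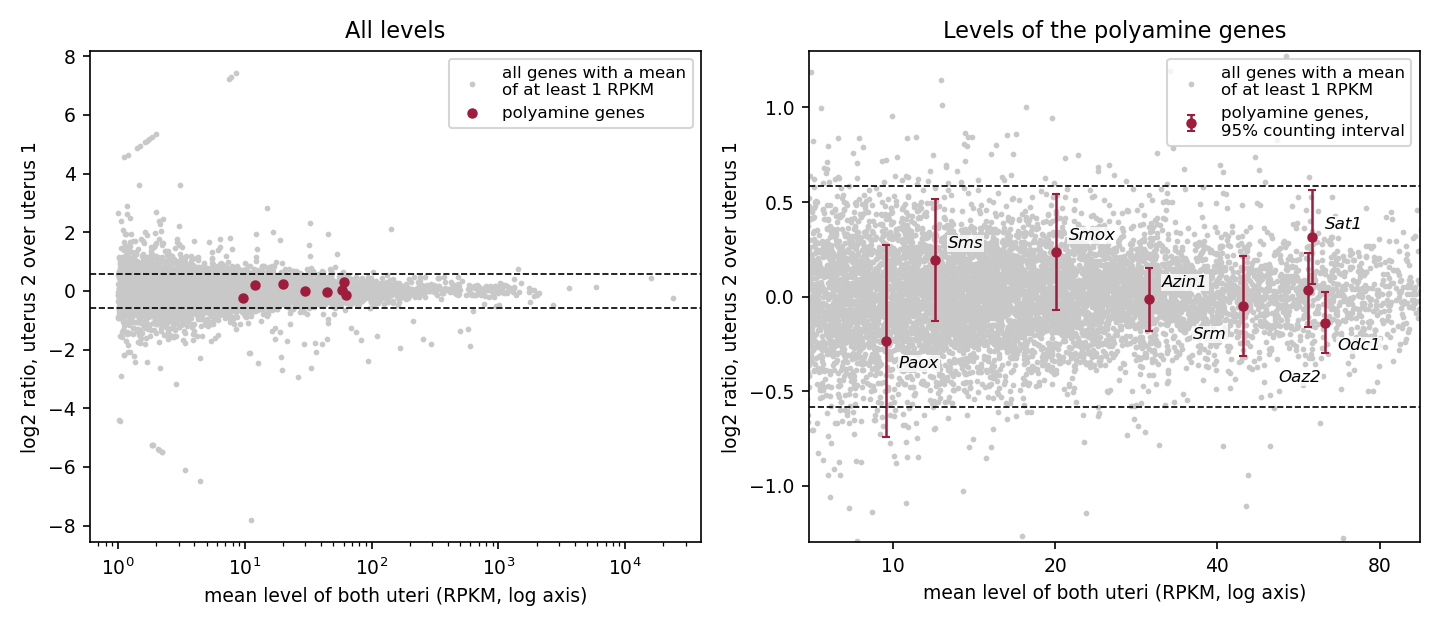
Log2 ratio of uterus 2 over uterus 1 (y axis) against the mean level in RPKM (x axis, log scale), over all levels (left) and enlarged (right). Grey points are all genes whose mean reached 1 RPKM, red points the 8 detected polyamine genes, error bars on the right the 95% exact counting interval, and dashed lines a 1.5-fold difference; all 8 points lie between the lines.

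Amd1 and Oaz1, whose products nearly every cell needs, stood apart from the other 8 in how the authors' annotated table places them. Amd1 (NM_009665, chr10:40007264-40021994, minus strand) shared 99.9% of its span with the entry Amd2 (NM_007444, chr10:40007271-40021992, minus strand), also at 0 in both uteri. Oaz1 shared 95.7% of its span with the entry Oaz1-ps (NR_027656, chr10:80289441-80291962, plus strand), a pseudogene entry that was likewise at 0 in both uteri. The Oaz1 entry reached 40 bases further at its start and 73 bases further at its end. None of the other 8 polyamine genes had an entry that overlapped 90% or more of both spans on the same strand.

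The GENCODE M1 annotation of the same build puts both partners elsewhere: Amd2 at chr10:35428497-35431697 (minus strand), and Gm9786, which RefSeq (GRCm38.p6) gives as another name of Oaz1-ps under the identifier NR_027656, at chr17:17482420-17483104 (minus strand). Over the whole table, 263 entries shared 90% or more of both spans with another entry on their strand. Of these, 213 (81.0%) were listed at 0 in both uteri, against 5101 of the 22477 other entries (22.7%), and against 23.4% of all genes. Among entries with an NM_ identifier, for protein-coding transcripts, the shares were 79.5% of 244 and 21.1% of 20201. The part of shared spans in the values of Amd1 and Oaz1 was not tested. A listed 0 for these genes is not read as absence of the transcript. At this depth 3 reads, the limit that a count of 0 allows by counting error, would equal 0.244 and 0.220 RPKM for the Amd1 transcript of 3203 bases. The single Oaz1 read implied a transcript of 1075 bases, the length of the GENCODE transcript.

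**Figure D3:**
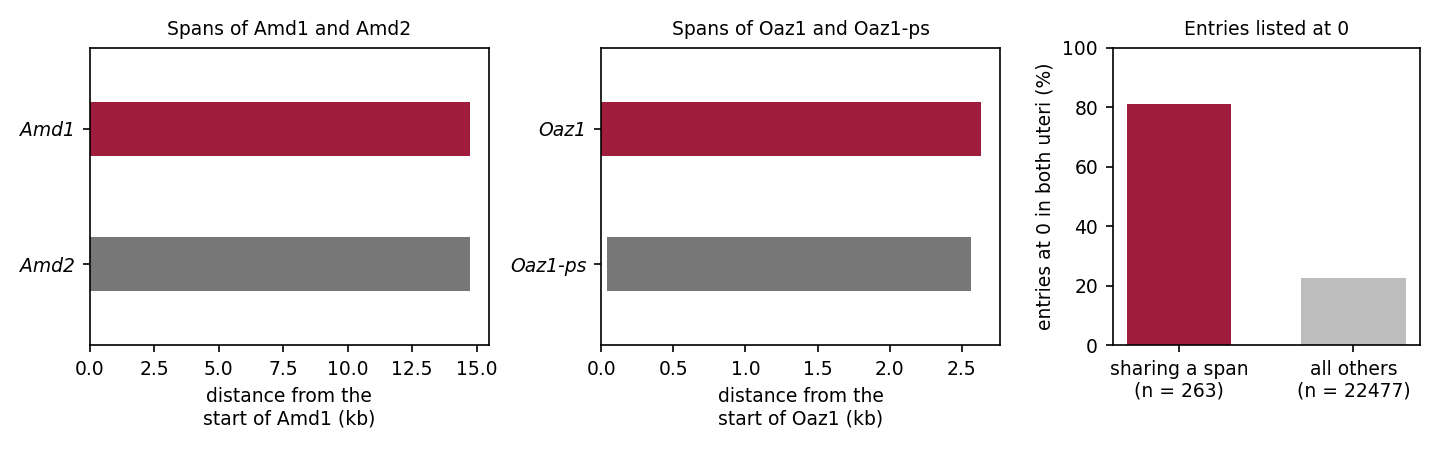
Left and centre, spans of Amd1 with Amd2 and of Oaz1 with Oaz1-ps in the authors' annotated table, as distance in kb from the start of the first gene (x axis). Right, the percentage of entries listed at 0 in both uteri (y axis) is 81.0% for the 263 entries that share 90% or more of their span and 22.7% for all others.

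Several polyamine genes also have near-identical copies elsewhere in the mouse genome. Each transcript was searched against NCBIM37, and the share of its 50-base windows found exactly outside its own locus was taken. This share was 89.6% for Amd1, 87.0% for Oaz1, 78.1% for Paox, 60.4% for Oaz2, 54.6% for Odc1, 41.7% for Sms and 40.7% for Sat1. It was 0 for Srm, Azin1 and Smox. Of the best copies of those 7 genes, 5 overlapped an annotated pseudogene, that of Amd1 was the coding gene Amd2, and that of Sat1 met no annotated transcript. The highest shares were those of Amd1 and Oaz1, the 2 genes at or near 0, and Paox, next in share, was at 9.72 RPKM. The part of these copies in the values of Amd1 and Oaz1 was not tested. The read length, and what was done with reads that match several places, are not given in the sources used here, so the levels of these 7 genes are uncertain to that extent. Each of the ratios between genes given above (Srm to Sms, Odc1 to Azin1, Sat1 to Smox and Paox, and Smox to Paox) includes at least 1 of them.

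The first 60 bases of the coding sequence are shown for Amd1, Oaz1, Odc1 and Sat1 beside the best copy of each, as an example stretch. This stretch does not stand for the whole transcript, whose identity to the copy is given below. Capitals mark bases that differ.
Amd1, chr10:40021605-40021664, minus strand: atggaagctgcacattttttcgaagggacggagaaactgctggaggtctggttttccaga
Copy at Amd2, chr10:35431306-35431365, minus strand: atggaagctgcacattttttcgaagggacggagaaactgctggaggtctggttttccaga
Oaz1, chr10:80289505-80289564, plus strand: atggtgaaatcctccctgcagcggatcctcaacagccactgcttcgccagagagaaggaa
Copy at Gm9786, chr17:17483045-17483104, minus strand: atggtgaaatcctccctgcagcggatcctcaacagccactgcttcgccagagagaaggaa
Odc1, chr12:17554105-17554164, plus strand: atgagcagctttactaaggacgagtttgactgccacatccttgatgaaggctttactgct
Copy at Gm9115, chrX:99921029-99921088, minus strand: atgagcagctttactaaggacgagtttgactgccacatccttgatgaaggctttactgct
Sat1, chrX:151650652-151650711, minus strand: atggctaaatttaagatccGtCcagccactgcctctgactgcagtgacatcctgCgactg
Copy of Sat1, chr5:30121518-30121577, minus strand: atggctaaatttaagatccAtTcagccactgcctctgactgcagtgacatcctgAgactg
No base differed over these 60 bases for Amd1, Oaz1 and Odc1, and 3 differed for Sat1. Over the aligned length, the best copy covered 99.8% of the Amd1 transcript at 99.6% identity, 96.9% of Oaz1 at 99.8%, and 90.5% of Sat1 at 97.5%. For Odc1 it was Gm9115 on chromosome X, covering 96.1% at 96.1% identity, and 8 loci covered at least 50% of the Odc1 transcript. For Paox it was Gm10307 on chromosome 1, covering 87.3% at 99.8% identity.

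**Figure D4:**
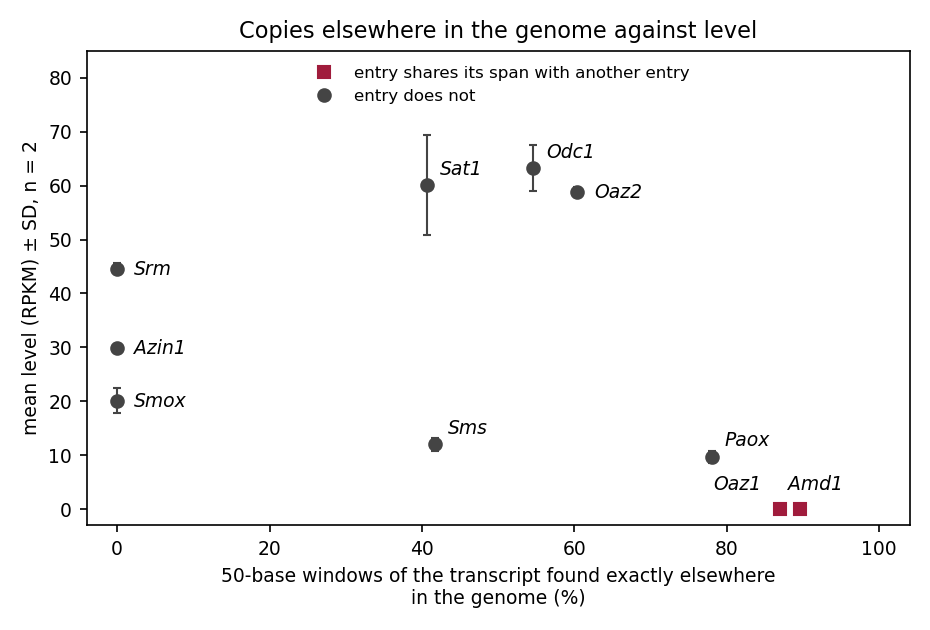
Mean level in RPKM with the SD over 2 uteri (y axis; no SD for Amd1 and Oaz1) against the percentage of 50-base windows of the transcript found exactly elsewhere in the genome (x axis), 1 point per polyamine gene. The squares, Amd1 and Oaz1, are the genes whose entry shares its span with another entry; Paox, at 78.1% of windows, lies at 9.72 RPKM.

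The other genes of polyamine metabolism were described through 6 lists with 45 genes in all, of which 33 reached 1 RPKM in both uteri and 6 were listed at 0 in both. Among those 33, 1 was 1.5-fold or more higher in uterus 2 and 2 were so in uterus 1, against 4.10% and 4.26% of all genes; together they make 9.09%, near the 8.35% of all genes. Ornithine supply, the list of genes linked to the metabolism and transport of arginine and ornithine, held all 3 of them. Their values were seen before they were named here. The name of the list does not mean that each member makes ornithine. Slc7a2, a cationic amino acid transporter, was at 14.4 and 6.73 RPKM, in the order uterus 1 and uterus 2, from 435 and 225 reads (log2 ratio -1.09, 95% exact counting interval -1.34 to -0.87). Slc7a1, another transporter of arginine and ornithine, lay at 9.08 and 4.75 RPKM on 250 and 145 reads (-0.92, -1.24 to -0.64). Arg2, the mitochondrial arginase, went the other way, at 3.50 and 7.46 RPKM on 19 and 45 reads (1.07, 0.29 to 1.95). These ratios compare 2 libraries and have no replicate.

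Within that list, Oat, ornithine aminotransferase, was highest at 82.7 ± 0.749 RPKM (SD, n = 2), followed by Aldh18a1, which starts ornithine synthesis from glutamate, at 28.8 ± 5.14 RPKM, and Gatm at 17.8 ± 0.317 RPKM. Arg1, the cytosolic arginase, was at 1.25 ± 0.0258 RPKM on 7 and 8 reads. Otc and Agmat were listed at 0. The median log2 ratio of the 8 detected genes of the list was -0.19, against 0.0007 for all genes and 0.01 for the 8 detected polyamine genes.

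Genes that supply S-adenosylmethionine and recover methionine from the methylthioadenosine that spermidine and spermine synthesis release were detected in 7 of 8 cases, none of them 1.5-fold apart. Mat2a, the S-adenosylmethionine synthetase of most tissues, was highest at 72.1 ± 2.14 RPKM (SD, n = 2), close to Odc1. Adi1 at 26.8 ± 0.216 RPKM and Mat2b at 26.4 ± 0.399 RPKM followed, and Mat1a, the liver form, held 1 read in uterus 1 and 0 in uterus 2. All 4 genes of hypusination, the modification of the translation factor eIF5A that uses spermidine, were detected: Eif5a was highest at 165.6 ± 13.8 RPKM (SD, n = 2), Dohh lay at 15.7 ± 0.777 RPKM, Dhps at 9.73 ± 0.464 RPKM and Eif5a2 at 3.55 ± 0.227 RPKM.

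Of 12 genes linked to polyamine transport, 7 were detected. Cav1, which marks caveolae, was highest at 122 ± 3.66 RPKM (SD, n = 2), then the proteoglycan Gpc1 at 56.5 ± 8.65 RPKM and Slc3a2 at 32.8 ± 3.49 RPKM. Atp13a4 and Atp13a5 were listed at 0, and Slc12a8 and Slc22a2 had means of 0.659 and 0.171 RPKM on at most 11 reads in either uterus. Of the 6 genes that oxidise putrescine, other amines or the aldehydes they give, 5 were detected, led by Aldh2 at 120 ± 1.44 RPKM, Aldh9a1 at 25.6 ± 0.0239 RPKM and Aoc3 at 10.2 ± 2.58 RPKM. Abp1, the table's symbol for Aoc1 (diamine oxidase, which oxidises putrescine), was at 0.726 and 1.23 RPKM on 8 and 15 reads. Among the other enzymes and regulators, Sat2 was at 7.35 ± 1.73 RPKM and Adc, the table's symbol for Azin2, at 2.98 ± 0.402 RPKM, while Oaz3, the antizyme of the testis, and Amd2 were listed at 0 and Satl1 held 1 and 2 reads.

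**Figure D5:**
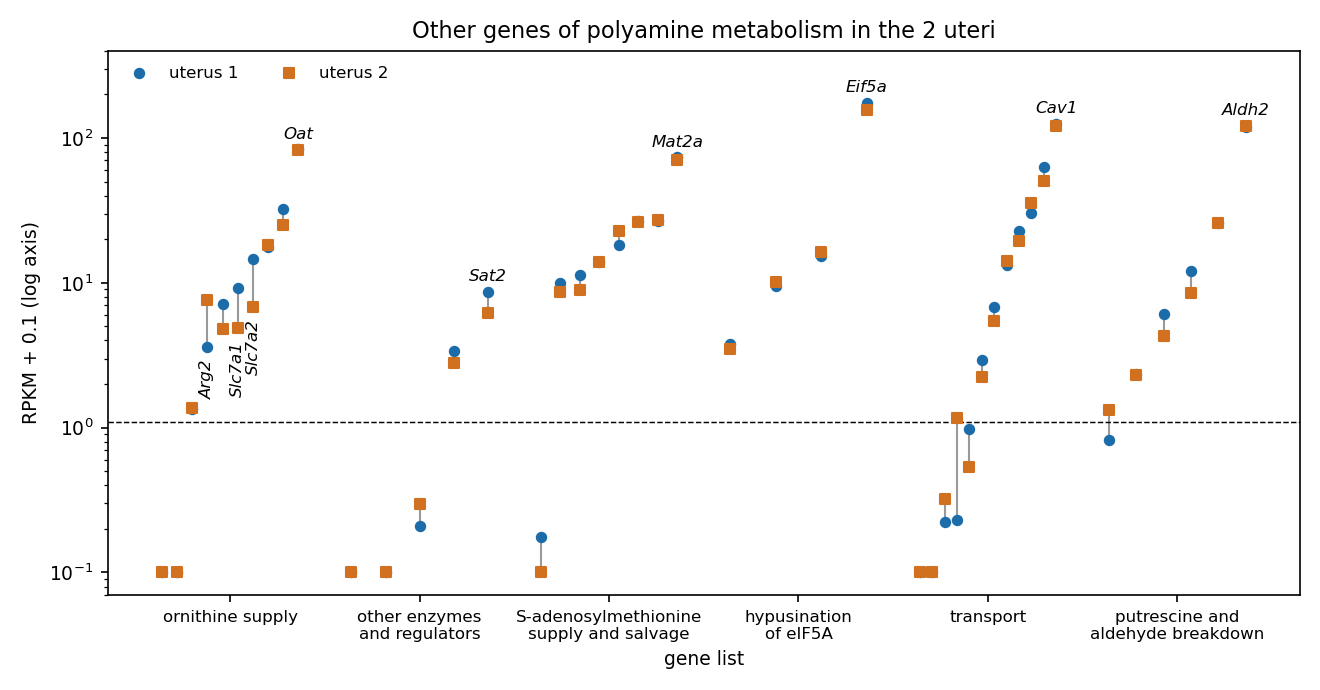
RPKM + 0.1 (y axis, log scale) of 45 genes in 6 lists (x axis), ordered by mean level within each list, with uterus 1 as circles, uterus 2 as squares and a line joining the 2 values of a gene. The dashed line marks 1 RPKM; Slc7a1 and Slc7a2 lie lower in uterus 2 and Arg2 higher, while every other gene above the line by its mean is less than 1.5-fold apart.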

How the data were processed

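RNA was sequenced from 2 day 4 uteri with 1 library each, from 1 microgram of total RNA after poly-A purification, per the labels' protocols and design text. The authors normalized each gene to RPKM, per the labels. TopHat, edgeR and build mm9 (NCBIM37) are named in the submitters' processing notes, without version or role. The use of strand, the annotation release and the read length are not given in the sources used here. Deposited starts were read as counted from 0. The polyamine genes have identical values in the plain and the annotated table.

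Reads were recovered as RPKM times length times a scaling total. The totals came from entries of at most 400 bases, and a ratio of reads was called whole within a relative tolerance of 1e-07. This gave whole reads for 99.5% of the 17426 genes above 0, and the method was tested on simulated data. A common factor was set by the nearest annotated length. Log2 ratios used a pseudocount of 0.1 RPKM, which understates changes of low genes, over genes whose mean reached 1 RPKM. Counting intervals are exact (Clopper-Pearson, 95%). Reads without molecular identifiers are not independent molecules, so they cover counting error only. Copies were searched with blastn 2.17.0 at 90% identity or more. Python 3.11.15 and scipy 1.17.1 were used.

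The members and lists were chosen with earlier results of these data known. Named genes were the 10 polyamine genes and, from the lists, the highest 3 and those below 1 RPKM. Others are said to be chosen after their values were seen, and a few further list members are given for completeness of a list. The Azin2 and Aoc1 symbols were matched by RefSeq accession. The alternatives were other pseudocounts, filters, scales and single libraries. A gene of the transport list is not reported here by name.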

Additional observations from a re-analysis of the deposited data

How the results depend on the processing

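The count of detected polyamine genes was 8 at 2 RPKM, at any value above 0, and in either library alone. The 32 alternative log2 ratios of the 8 detected genes (pseudocounts of 0.01 and 1 RPKM, the TPM scale, centring) all kept their direction and stayed inside the counting interval, and the 15 alternative ratios between pairs of genes moved by no more than 1 SD. With 2 libraries, leaving out either must move a mean by less than 1 SD, whatever the data. The number of all genes at least 1.5-fold apart, 1140, became 3433 without a filter on low values, 148 at a mean of 10 RPKM and 660 with a pseudocount of 1 RPKM. The number at least 2-fold apart, 355, became 1846, 48 and 153 under the same changes. Fewer or more low genes enter by construction of the filters. Percentiles fall when low genes are left out, that of Odc1 to 93.6 and that of Paox from 67.3 to 45.5. With an overlap of 50% of both spans, chosen after seeing the data as were the next settings, 76.9% of overlapped entries were at 0. The share of 50-base windows found elsewhere moved both ways. With windows of 100 bases it was 77.4% for Amd1, 79.6% for Oaz1, 71.1% for Paox, 39.4% for Sms, 36.6% for Oaz2, 27.3% for Odc1 and 15.0% for Sat1. With up to 2 mismatches it was 98.8% for Amd1, 96.8% for Oaz1, 86.9% for Paox, 42.4% for Sms, 90.9% for Oaz2, 88.3% for Odc1, 77.0% for Sat1 and 2.17% for Srm. With windows of 36 bases it was between 42.7% (Sms) and 93.4% (Amd1) for those 7 genes and 0.230% for Srm. Azin1 and Smox stayed at 0 under these 3 settings. No paired analysis was possible because the labels give only 1 group. Depth limits Paox most among the detected genes.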
